A study of Caenorhabditis elegans with 2 samples.

Results

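Of the 2123 autosomal CTBP-1 peaks that lay away from tRNA genes, 240 (11.3%) had their summit in a divergent promoter, a stretch of sequence upstream of genes that are transcribed away from each other. They were chosen from the 2927 peaks of the thresholded series-level list, of which 2284 lay on autosomes, in 3 steps that used only position. Peaks with a summit within 200 bp of a tRNA gene were dropped (161 peaks, 4 of them in divergent promoters). A promoter window was drawn from 1000 bp upstream to 250 bp downstream of each annotated 5′ end of a protein-coding transcript. A summit was kept when it fell in the windows of at least 1 plus-strand and at least 1 minus-strand gene. The comparison set was the 788 autosomal summits in windows of genes of a single direction, here termed one-direction promoters.

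The peaks came from chromatin immunoprecipitation followed by sequencing (ChIP-seq) on whole L4 larvae of Caenorhabditis elegans, collected at 48 h after growth was synchronised by bleaching and starvation at the L1 stage. The strain, RW12203, carries the CRISPR insertion st12203, which adds TY1, EGFP and 3xFLAG tags to ctbp-1 at its own locus on X, and an antibody against GFP was used for the precipitation. There were 2 biological replicates of 1 group, no second condition was analysed here, and the cells in which a peak was bound cannot be told apart in whole animals. Without a contrast, and because peaks from the same animals are not replicates, differences between classes of peaks were not tested and are given as descriptions.

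CtBP proteins are corepressors that bind NAD(H) and are generally brought to DNA by transcription factors, and they recruit enzymes that modify histones. The worm protein CTBP-1 also has an isoform with a THAP domain, a zinc-binding fold that can contact DNA, and has been studied in neurons and in lifespan. In a divergent promoter a single stretch of open chromatin can serve genes on both strands, so a factor bound there cannot be assigned to either gene by position alone. In worms many annotated 5′ ends are trans-splice sites, where a leader RNA has replaced the start of the transcript, so the site of initiation may lie further upstream.

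The windows around the summit of 4 strong peaks are shown first because they hold the sequence features that set these summits apart from their flanks. They reach 75 bp to either side of the summit on the plus strand of the RefSeq WBcel235 genome (the coordinates of ce11), and capitals mark each CGCG and each GAGAGA or its complement TCTCTC. The first, chrIII:10759170-10759320, lay in intergenic sequence between K01G5.10 and tasp-1. The next, chrIII:13643670-13643820, lay between drr-2 and set-16, and the one after it, chrIII:4475585-4475735, between ifet-1 and rps-1. The last, chrII:5661117-5661267, had its summit in an exon, 11 bp downstream of the 5′ end of mdt-26.
K01G5.10/tasp-1: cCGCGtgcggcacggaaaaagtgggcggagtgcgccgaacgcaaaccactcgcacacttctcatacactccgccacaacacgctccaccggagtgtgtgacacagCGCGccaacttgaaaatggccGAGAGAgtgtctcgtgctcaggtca
drr-2/set-16: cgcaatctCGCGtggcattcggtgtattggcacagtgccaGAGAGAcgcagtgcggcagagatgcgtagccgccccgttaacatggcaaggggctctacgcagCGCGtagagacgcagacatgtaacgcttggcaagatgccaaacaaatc
ifet-1/rps-1: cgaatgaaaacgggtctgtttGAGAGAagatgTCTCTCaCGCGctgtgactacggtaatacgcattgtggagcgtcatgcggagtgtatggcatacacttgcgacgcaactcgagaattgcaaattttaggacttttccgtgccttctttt
ift-43/mdt-26: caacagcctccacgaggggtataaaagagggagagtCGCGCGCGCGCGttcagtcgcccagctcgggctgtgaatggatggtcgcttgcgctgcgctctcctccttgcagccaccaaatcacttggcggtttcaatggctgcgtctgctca

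Among the 240 peaks, the shortest distance between the 5′ ends of a pair was 92 bp, between ears-2, a glutamyl-tRNA synthetase gene, and uncp-18. Its whole divergent stretch, chrIV:390468-390560 on the plus strand from the 5′ end of ears-2 to that of uncp-18, is shown because the summit could lie nowhere else between the genes. Capitals mark each CGCG.
ears-2/uncp-18: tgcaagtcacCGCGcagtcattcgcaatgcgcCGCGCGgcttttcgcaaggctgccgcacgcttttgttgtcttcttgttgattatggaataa

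Heat shock genes supplied a known pair of divergent promoters, and their windows are shown because the heat shock element, the binding site of the heat shock factor HSF-1, is built from repeats that face each other. Capitals mark its core GAANNTTC, in which N is any base. The first window, chrII:11759403-11759553, lay between F44E5.4 and F44E5.5, which encode near-identical Hsp70 chaperones. The other, chrV:1805068-1805218, lay between hsp-16.2 and hsp-16.41, which encode small heat shock proteins. Both are of the plus strand of the same genome and reach 75 bp to either side of the summit.
F44E5.4/F44E5.5: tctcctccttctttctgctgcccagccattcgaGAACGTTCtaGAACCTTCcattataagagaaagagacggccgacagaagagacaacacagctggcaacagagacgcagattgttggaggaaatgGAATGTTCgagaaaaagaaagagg
hsp-16.2/hsp-16.41: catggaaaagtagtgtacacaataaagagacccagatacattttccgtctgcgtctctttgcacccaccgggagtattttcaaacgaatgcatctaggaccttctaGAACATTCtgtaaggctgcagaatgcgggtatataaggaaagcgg

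The annotated positions fitted the name given to the set, which the rule all but fixes: 30 of the 2708 autosomal divergent regions have no head-to-head pair. In all 240 peaks the nearest minus-strand 5′ end lay to the left of the nearest plus-strand 5′ end, so that the genes were head to head. The summit lay between these 5′ ends in 206 peaks (85.8%, 95% Wilson interval 80.9 to 89.7%). In the other 34 it lay beside them, inside a protein-coding gene. The stretch between the 5′ ends had a median length of 546.5 bp (interquartile range 343 to 813 bp, lowest 92 bp, highest 1831 bp). The nearer 5′ end was a median of 153 bp from the summit (interquartile range 64.8 to 243 bp), and the farther one 402 bp (252 to 650 bp). The nearer gene was on the plus strand for 127 peaks and on the minus strand for 113.

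Summits were spread along the stretch between the genes. The summit was within 50 bp of the midpoint in 69 peaks and within 100 bp in 109, while 59 peaks had both 5′ ends within 250 bp. In 53 peaks the summit lay in a protein-coding gene, and in 37 of these in an exon. The peaks touched 458 genes in 222 distinct nearest pairs: 224 peaks lay in windows of 2 genes, 15 of 3 genes and 1 of 4 genes. The peak with 4 genes lay between Y62E10A.20 on the minus strand and Y62E10A.23, mdt-9 and lsm-3 on the plus strand, where mdt-9 encodes a Mediator subunit and lsm-3 a protein of the small nuclear RNA-binding Lsm ring.

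**Figure D1:**
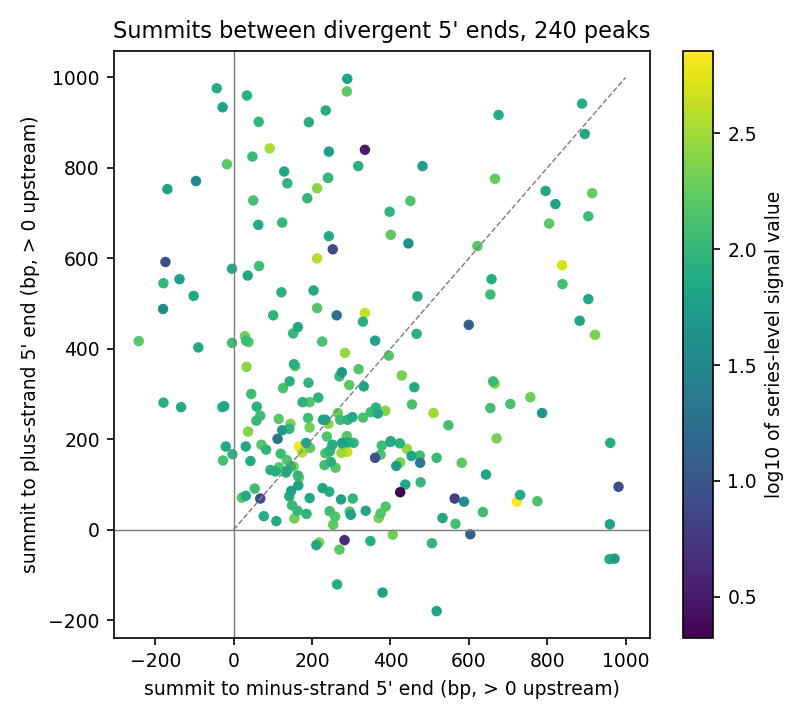
Each point is 1 of the 240 peaks, placed by the distance in bp from its summit to the nearest minus-strand 5′ end (x axis) and plus-strand 5′ end (y axis); values above 0 are upstream, and the colour gives log10 of the series-level signal value. The 206 summits above and to the right of the grey zero lines lie between head-to-head 5′ ends, and the 34 beyond a zero line lie inside a gene.

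Divergent promoters held more CTBP-1 peaks per length than other sequence. They made up 2.83% of the autosomes and held 103 summits per Mb, against 37.9 per Mb in one-direction windows, 18.4 per Mb outside promoter windows and 25.7 per Mb over all autosomes. A divergent window is close to its 5′ ends by construction, so the densities were also set side by side at equal distance to the nearest 5′ end. At 0 to 49 bp there were 121 summits per Mb in divergent and 50.1 per Mb in one-direction windows, and at 100 to 199 bp 126 and 43.1 per Mb. At 500 to 1000 bp, with 15 and 211 summits, the densities were 57.2 and 26.8 per Mb.

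**Figure D2:**
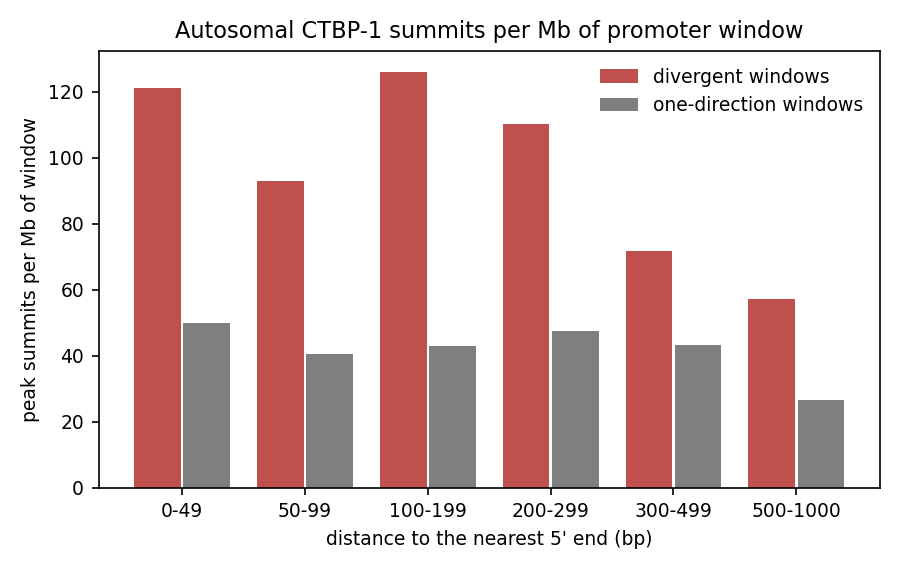
Bars give autosomal summits per Mb of promoter window (y axis) in bins of distance to the nearest 5′ end in bp (x axis), for divergent windows (red, left) and one-direction windows (grey, right). Divergent windows are higher in every bin, from 121 against 50.1 per Mb nearest the 5′ end to 57.2 against 26.8 per Mb at 500 to 1000 bp.

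Most divergent promoters had no peak. Of 2708 autosomal divergent regions, 221 (8.16%) held at least 1 of the 240 peaks: 202 held 1 and 19 held 2. Of 18458 one-direction regions, 706 (3.82%) held a summit; one-direction regions are longer in sum, at 25.2% of the autosomes. The share was 6.67% (10 of 150 regions) where the 5′ ends were 1 to 149 bp apart, 14.1% (44 of 312) at 300 to 449 bp and 13.6% (41 of 301) at 450 to 599 bp. It was 3.17% (29 of 915) at 1000 to 1999 bp, where the windows overlap less and the regions had a median length of 511 bp, against 933 bp at 300 to 449 bp. Per length, there were 86.6 summits per Mb of divergent region at 1 to 149 bp, 148 at 300 to 449 bp, 130.4 at 450 to 599 bp and 66.1 at 1000 to 1999 bp. By chromosome the share was 10.6% on I, 7.88% on II, 10.4% on III, 8.46% on IV and 5.10% on V.

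Ranked peaks in divergent windows passed the reproducibility threshold more often than others, without a test of the difference. The authors' ranked list, before any threshold, held 70358 autosomal peaks away from tRNA genes, of which 2123 (3.02%) were in the thresholded list. Of the 2168 ranked peaks in divergent windows 240 (11.1%) were in it, against 788 of 18143 (4.34%) in one-direction windows. Ranked peaks themselves were spread almost evenly, at 928 per Mb in divergent windows, 872 per Mb in one-direction windows and 852 per Mb over all autosomes. Input coverage, chromatin accessibility and transcription were not among the files used, and their part in the number of peaks at promoters was not tested.

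The signal value of a peak is the authors' own measure of its height. Its median was 95.8 over the divergent-promoter peaks (interquartile range 68.9 to 144, lowest 2.10, highest 719), against 83.8 over one-direction promoter peaks and 81.9 over all other kept autosomal peaks. In replicate 1 the medians were 52.0 in divergent and 43.7 in one-direction promoters, and in replicate 2 they were 52.9 and 45.8. Of the 100 strongest kept autosomal peaks, 24 were among the 240 in divergent promoters and 42 among the 788 in one-direction promoters (5.33% of these). Peaks with the summit between the 5′ ends had a median signal of 100.1, against 72.7 for the 34 beside them. The highest chromosome median was 118, on III, and the lowest 87.2, on II.

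Divergent-promoter peaks found in only 1 replicate, or in neither, had lower signals than those found in both. A peak of replicate 1 that passed its own threshold overlapped 135 of the 240 (56.3%), against 945 of all 2123 kept peaks (44.5%). For replicate 2 it was 152 (63.3%), against 1092 of all kept peaks (51.4%). Both replicates overlapped 47.9% of the 240 (interval 41.7 to 54.2%), against 717 of all kept peaks (33.8%) and 34.8% of one-direction promoter peaks. A further 20 overlapped a thresholded peak of replicate 1 only, 37 of replicate 2 only and 68 (28.3%) of neither. The median series-level signal was 146 for peaks found in both replicates, 84.5 for those in 1 and 66.2 for those in neither.

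Of the 240 peaks, 214 had a ranked peak within 100 bp of the summit in both replicates. Over these, the log2 ratio of replicate 2 to replicate 1 had a median of 0.10 and an SD of 0.49, 129 were higher in replicate 2, and 11 differed by over 1 on the log2 scale. The rank correlation of the replicates (Spearman) was 0.76 over these peaks and 0.63 over all kept autosomal peaks. All of them had passed a threshold on reproducible rank, so agreement of the replicates may be set in part by this selection. The series-level values come from both replicates and are not independent of either. The largest shift to replicate 1 was at ztf-9/ZK287.7, with signals of 66.2 in replicate 1 and 24.5 in replicate 2. The largest to replicate 2 was at Y62E10A.20/Y62E10A.23, with 19.4 in replicate 1 and 51.4 in replicate 2. Their series-level signals were 95.01 and 60.6, both below the median of the set. Shifts to replicate 2 of over 1 on the log2 scale also occurred above that median. Examples were spd-5/npp-6 (log2 ratio 1.11, series-level signal 155) and F40F11.3/mig-38 (1.33, 122).

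**Figure D3:**
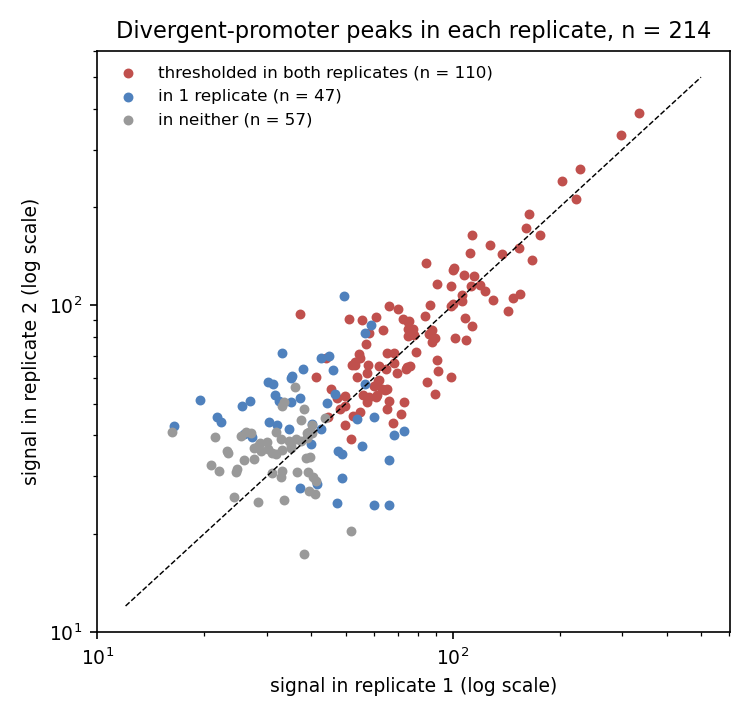
Signal of each divergent-promoter peak in replicate 1 (x axis) and replicate 2 (y axis), both on a log scale, for the 214 peaks matched in both ranked lists; colours show whether the peak overlapped a thresholded peak of both replicates (red, 110), of 1 (blue, 47) or of neither (grey, 57), and the dashed line marks equal values. The strongest peaks follow the line and the unthresholded ones gather at low signal.

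The strongest of the 240 lay between K01G5.10 and tasp-1, named for the protease taspase, with signals of 336 in replicate 1, 389 in replicate 2 and 719 in the series-level list. Its summit was 62 bp from tasp-1 and 723 bp from K01G5.10. The next lay between the Hsp70 genes F44E5.4 and F44E5.5, with 298 in replicate 1, 334 in replicate 2 and 631 in the series-level list. Both strands there had a 5′ end close to the summit, at 167 and 184 bp, and because the genes are near-identical copies, reads from either may have been placed at the other. Between nhl-2, which encodes a TRIM-NHL cofactor of microRNA silencing, and tag-340 the signals were 228 in replicate 1 and 262 in replicate 2, from a summit 585 bp from the nearer end. These 3 peaks were thresholded in both replicates, as were the next 9 by signal.

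Genes of protein synthesis supplied much of the rest of the top 12. The peak between rpl-20, a gene of the large ribosomal subunit, and Y17G9B.5 had 204 in replicate 1 and 241 in replicate 2. The peak between rpl-15 and K11H12.8 had 223 and 211 in the same order. That between ifet-1, the eIF4E transporter and translational repressor, and rps-1 had 154 and 150. The values of the replicates lay close together at all of these. Between rps-19 and hsr-9, the worm relative of the DNA damage protein 53BP1, they were 167 and 138, and between iff-2, a gene of the factor eIF5A, and F54C9.14 they were 161 and 173.

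Chaperone and chromatin genes made up the others. The peak 213 bp from Y22D7AL.10 and 600 bp from hsp-60, the mitochondrial chaperonin gene, had 164 in replicate 1 and 191 in replicate 2. The peak between C47E8.4 and hsp-90 had 127 and 153, and that between cct-8, a subunit of the cytosolic chaperonin, and Y55F3AR.2 had 138 and 144. Between drr-2, the worm eIF4H, and set-16, an MLL-type histone H3 lysine 4 methyltransferase, the signals were 176 and 164. This summit was 175 bp from drr-2 and 171 bp from set-16, nearly at the midpoint.

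Gene groups were counted over autosomal genes that have a divergent region at all, of which 458 of 5489 (8.34%) held 1 of the 240 peaks. A peak counted for every gene whose window held it, so the partner of a listed gene may be the one served. The cytosolic ribosome stood highest in number, with 21 of 53 genes (39.6%) at 21 peaks with a median signal of 116. The listed gene was the nearer one at 9 of them. Besides those above, rpl-12 shared a peak with lin-54 (148 in replicate 1, 105 in replicate 2), and rpl-7A shared one with set-21 (108 and 124). The divergent pair rps-10/rpl-24.1, with ribosomal genes on both strands, had 42.6 and 68.8 and passed the threshold of replicate 2 only. In the replicates' own thresholded lists the ribosomal count was 14 for replicate 1 and 17 for replicate 2, of 259 and 312 genes in all.

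Heat shock and J-domain chaperones had 9 of 24 genes (37.5%) at 8 peaks, whose median signal was 217. Only genes named hsp- or dnj- were listed, so the Hsp70 pair F44E5.4/F44E5.5 is in neither the count nor the median. J-domain proteins are the cochaperones that stimulate Hsp70. Besides hsp-60 and hsp-90, peaks lay at dnj-28, dnj-13, dnj-19, hsp-110, dnj-11 and the pair hsp-16.2/hsp-16.41. The dnj-28/supr-1 peak had 100.5 in replicate 1 and 129 in replicate 2, and the dnj-19/nhr-47 peak 99.1 and 114.5. The small heat shock pair hsp-16.2/hsp-16.41 was weaker, with 44.2 and 50.1, and these genes have close paralogs that could share reads. Of the cytosolic chaperonin, 3 of 8 genes (cct-1, cct-7 and cct-8) had a peak, all of them thresholded in both replicates.

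Translation factors had 6 of 21 genes (28.6%). The 3 strongest elongation factor peaks were eef-1G/ctf-4 (114 in replicate 1 and 86.4 in replicate 2), eef-2/clsp-1 (72.4 and 90.8) and eef-1A.1/rfc-4 (65.3 and 71.6), where rfc-4 encodes a clamp loader subunit of DNA replication. A further pair of peaks lay at eef-1B.1/aco-2, the stronger with 49.6 in replicate 1 and 43.1 in replicate 2. Mitochondrial ribosome genes had 4 of 30 (13.3%), none thresholded in both replicates and 0 in replicate 1 alone, and tRNA synthetases 1 of 15.

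Small complexes with high shares were Mediator, which joins transcription factors to RNA polymerase II, with 4 of 7 genes, and the DREAM complex, a repressor of cell cycle and germline genes that contains the retinoblastoma protein, with 3 of 5. With so few genes each, 1 gene moves these shares by many percentage points. The Mediator peak apb-1/mdt-19 had 130 in replicate 1 and 104 in replicate 2, and ift-43/mdt-26 had 98.9 and 99.7. In replicate 1 alone, 2 Mediator genes had a thresholded peak, of 259 genes in all. The DREAM genes were lin-54, lin-53, at 100.3 in replicate 1 and 100.7 in replicate 2, and lin-35, the retinoblastoma gene, at 31.2 and 57.3 in a peak shared with vps-51. The chromatin list, drawn from gene names, had a peak at 3 of 13 genes, the histone methyltransferase genes set-16, set-21 and set-26. Genes with names outside that list, such as hat-1 and ash-2, also had a peak and were not counted in it.

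Membrane traffic, energy and RNA processing lists lay between these and the background. Vacuolar sorting had 5 of 15 genes, secretion 6 of 23, respiration 5 of 21, nuclear pore 4 of 17 and splicing 5 of 22, while proteasome genes had 3 of 27. Examples were sec-61.B/trap-3, with 112 in replicate 1 and 114.6 in replicate 2, npp-3/top-2, with 74.98 and 89.2, and atp-1/mcrs-1, with 114.9 and 123. Several of these counts were lower in a single replicate. The count over all genes was lower too, at 259 in replicate 1 alone and 312 in replicate 2 alone, against 458. In replicate 1 alone vacuolar sorting had 1 gene, secretion 3, nuclear pore 2, splicing 2 and proteasome 1. In replicate 2 alone vacuolar sorting had 2, respiration 2 and proteasome 1, while splicing was higher, at 6. Splicing had the pair rsp-2/rsp-1 with listed genes on both strands, at 46.1 in replicate 1 and 63.5 in replicate 2.

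Of the lists of tissue-specific or environmentally regulated genes, C-type lectins and chemoreceptors had the shares furthest below the background of 8.34%. Nuclear hormone receptors (6.67%), neuropeptides (6.25%) and cuticle collagens (4.65%) were closer to it. These and the ceh- list rest on 1 to 3 genes with a peak each, too few to set them apart from the background. The homeobox genes named ceh- had 2 of 8, ceh-99 and ceh-38, whose peak facing malt-1 had 88.9 in replicate 1 and 79.6 in replicate 2. Nuclear hormone receptors had 3 of 45 genes, cuticle collagens 2 of 43, neuropeptides 1 of 16, C-type lectins 1 of 83 and chemoreceptors 6 of 215 (2.79%). In replicate 1 alone, with 259 genes in all, the chemoreceptor count was 3, that of ceh- genes 1, and those of collagens, neuropeptides and lectins 0. The strongest chemoreceptor peak lay between sri-5 and rsr-1, a gene of RNA processing, with 58.1 in replicate 1 and 82.2 in replicate 2. Histone genes named his-, 64 of whose 68 autosomal members have a divergent region, had 0 of these, and RNA polymerase subunits 0 of 11; the his- genes are repeated, so reads there may not map uniquely. The gene of the histone variant H2A.Z, htz-1, is outside that list and shared a peak with wapl-1, at 77.3 in replicate 1 and 84.8 in replicate 2. For comparison, 1146 of 17242 autosomal genes (6.65%) had a promoter summit of either kind, and of 79 ribosomal genes 46.8% did. In all, 100 of the 240 peaks had a gene of some list and 140 had none.

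**Figure D4:**
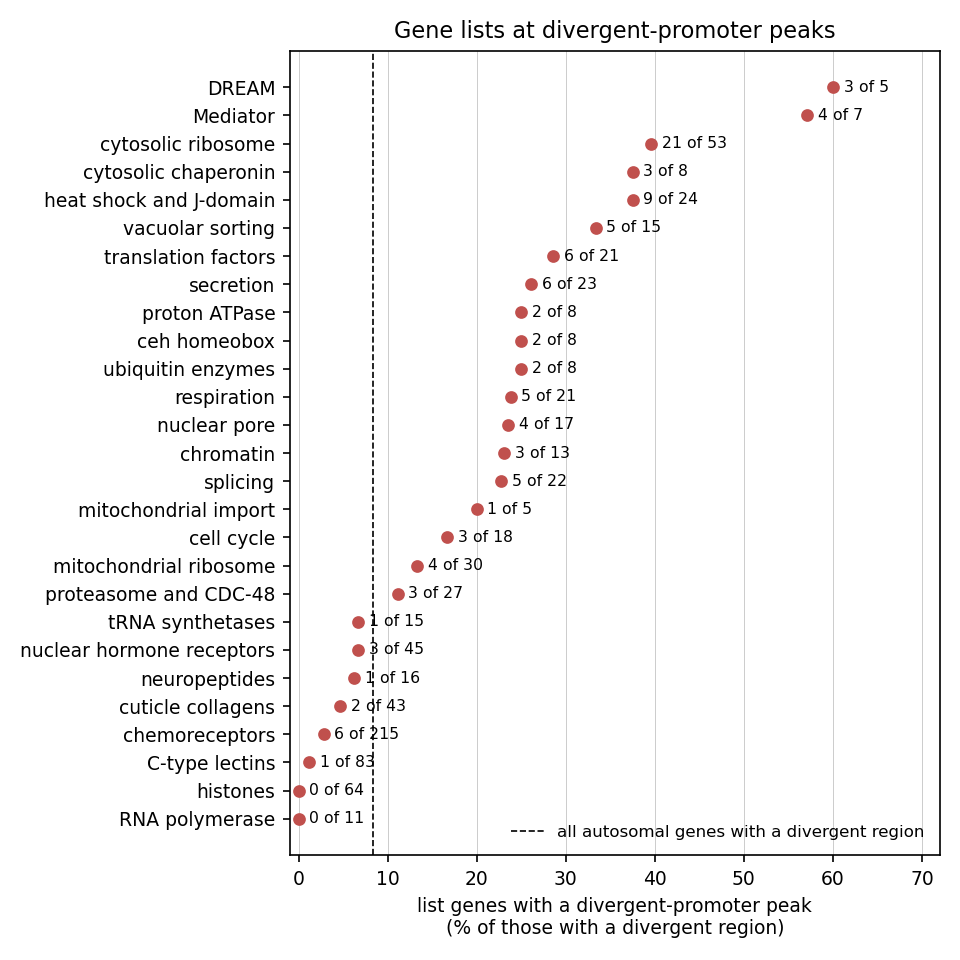
Points give the percent of each list's genes with a divergent-promoter peak, among its autosomal genes that have a divergent region, with the counts beside them for lists of at least 5 such genes; the dashed line marks 8.34% over all such genes. The ribosome (39.6%) and heat shock (37.5%) lists lie right of the line with larger counts than DREAM and Mediator, and chemoreceptors (2.79%) lie left of it.

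The base composition of the summits differed from that of the sequence around them. The median GC content within 75 bp of the summit was 45.7%, against 36.4% in windows centred 400 bp to each side, and was higher than in the flanks at 193 of 240 peaks. Midpoints of divergent regions with no peak had 33.8%, and midpoints of the pairs with a peak, which are not centred on the summit, had 37.1%. One-direction promoter summits and all kept autosomal summits also had 45.7%. Intron summits had 47.0%, summits between genes 46.4% and exon summits 42.4%, so this composition was not particular to promoter peaks.

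Motifs were searched on both strands of the same windows, and a match says only that the letters are there. CGCG occurred in 137 of the divergent summits (57.1%, interval 50.8 to 63.2%), against 19.8% of their flanks, 21.0% of 2457 midpoints of divergent regions with no peak, 42.3% of one-direction summits and 39.0% of all kept summits. At equal GC content the order stayed: under 40% GC it was in 41.1% of divergent and 22.3% of one-direction summits, and at 50% GC or more in 42 of 60 divergent and 54.4% of one-direction summits. It was also in 59.3% and 41.2% of the conservative list, and in 61.4% and 50.8% of replicate 1 alone, which narrows the gap. Several E2F spellings below contain CGCG or overlap it, so these counts are not separate.

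The repeat GAGAGA was less frequent in divergent summits than in one-direction summits, at 55 peaks (22.9%, interval 18.1 to 28.6%) against 30.5%. Over all kept summits it was in 32.8%. In divergent summits the repeat was more frequent than in their flanks, at 8.54%, and in midpoints with no peak, at 9.28%. Midpoints of the pairs with a peak had it in 15.8%. At 50% GC or more it was in 33.3% of divergent and 42.1% of one-direction summits. Both motifs were present in 29 divergent summits, CGCG alone in 108, GAGAGA alone in 26 and neither in 77. The strong windows shown above for tasp-1, set-16 and rps-1 hold both motifs, and that of F44E5.4/F44E5.5 holds neither. The strong peaks rpl-20/Y17G9B.5 and rpl-15/K11H12.8 also hold neither.

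CCACCC or CCGCCC, the letters of KLF and SP factor sites, occurred in 14.6% of divergent summits, 2.92% of their flanks and 15.1% of one-direction summits. The letters of E2F and DREAM sites, searched in the spellings TTCCCGC and next TTGGCGC, then also TTCGCGC and lastly TTGCCGC, occurred in 14.6%, 3.75% and 11.5% in the same order. The AT-rich motifs ran the other way. TGATAA, the GATA factor site, was in 7.92% of divergent summits and 15.6% of flanks, and TAATTA, a homeobox core, in 2.92% and 8.75%. TTTCAG, the trans-splice acceptor, was in 17.1% of divergent summits and 40.8% of flanks. TATAAA was in 24 of the 240 divergent summits, 15.0% of flanks and 6.35% of one-direction summits. AAAAAA was in 44.2%, 49.4% and 38.3% in the same order. CACGTG, the E-box, was in 4.58% of divergent summits, 2.29% of their flanks and 5.20% of one-direction summits. TGACGT, the CREB core, was in 5.42%, 4.38% and 7.61% in the same order.

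**Figure D5:**
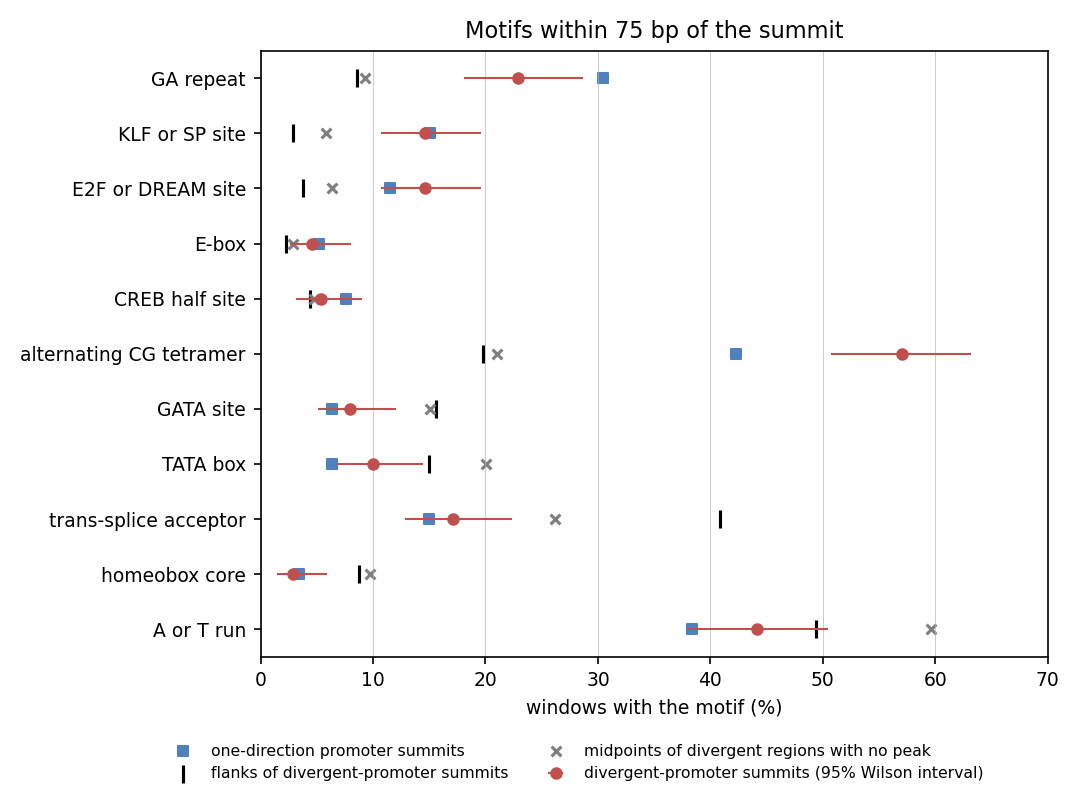
Percent of windows within 75 bp of the summit or midpoint that hold each motif (x axis) at divergent-promoter summits (red, with 95% Wilson intervals), one-direction summits (blue), flanks of the divergent summits (black bars) and midpoints of divergent regions with no peak (grey crosses). The alternating CG tetramer is at 57.1% in divergent and 42.3% in one-direction summits, the GA repeat at 22.9% and 30.5%.

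Peaks with high signal carried CGCG more often. It was in 23 of the 31 with a signal over 200 (74.2%), 58.0% of the 81 from 100 to 200 and 52.3% of the 128 up to 100. Median GC content in these groups was 50.3%, 47.0% and 43.0%, so GC content was also higher at higher signal, and its part in the share was not tested. One-direction summits also carried CGCG more often at higher signal. In the stronger 0.5 of the list by signal it was in 63.1% of divergent and 53.4% of one-direction summits. Over the whole list it was in 57.1% and 42.3%, so the gap was narrower among strong peaks. Genes of the lists were at 22 of the 31 strongest peaks (71.0%), 38.3% of the middle group and 36.7% of the weakest. The lists were chosen with earlier results of these data known, so this order may come in part from that choice. The share of divergent regions without a peak that hold a listed gene was not counted.

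The heat shock core GAANNTTC, searched because of the chaperone genes among the strongest peaks, was in 31 divergent summits (12.9%) and 10.4% of their flanks. It was in 6.73% of one-direction summits and 10.2% of the flanks of these. Of the 240, only F44E5.4/F44E5.5 had 3 copies, as printed above. Repeated copies were not particular to divergent promoters: 5 of 788 one-direction summits and 15 of all 2123 kept summits had 3 or more. A single copy was at the summits of hsp-90, dnj-13, dnj-19, hsp-110 and hsp-16.2/hsp-16.41, and none at those of hsp-60, dnj-28 and dnj-11.

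Some of the 240 peaks were neighbours in the same promoter. There were 20 neighbouring pairs that shared a gene, and 16 of these were 199 to 209 bp apart, a narrow range, while the other 4 were 658 to 728 bp apart. In the close pairs the weaker peak had a signal of 2.10 to 41.5 and the stronger 45.5 to 237. The weaker one had no ranked peak within 100 bp in replicate 1 in 14 of the 16 and in replicate 2 in 9. Of the 13 divergent-promoter peaks with a signal under 20, 12 shared a gene with another of the set. In the deposited list 205 of the 240 peaks have the same width, 364 bp, so close pairs overlap. Whether the peaks of a close pair are separate or shoulders of 1 peak was not tested, which bears on the count of 240 and on the 19 regions with 2 peaks. With the weaker of any summits under 300 bp apart dropped, 223 divergent-promoter peaks remained, with a median signal of 100.3 and CGCG in 59.2%, against 44.0% of one-direction summits. An example is aka-1/ubc-6, where ubc-6 encodes a ubiquitin-conjugating enzyme, with signals of 237 and, 201 bp away, 37.1.

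The limits of the selection ran close to some strong peaks. Just inside the window limit was cdc-14/ttc-4, whose farther 5′ end was 997 bp away and whose signal was 63.8, and just outside it was ints-4/W09C5.12, at 1009 bp with 332. Also just inside was spd-5/npp-6, the centrosome scaffold and a nuclear pore gene, with 155. Of the 240, the nearest to a tRNA gene was timm-23/F15D3.6, 1257 bp away with 78.2, and the peaks dropped there included pqn-71/rocf-1, 15 bp from a tRNA gene with 218. At the threshold itself, usp-48/F30A10.9 had a −log10 IDR of 2.00 and a signal of 61.3, and rpl-30/pab-1, just outside, had 1.97 and 58.2. These are given as values of single peaks and were not tested.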

How the data were processed

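Peak lists of 2 replicates and of the series as a whole (ce11, per the labels) were deposited by the authors. Aligner, peak caller and read numbers: not given in the sources used here. Depth is therefore unknown, and intervals cover the counting of peaks only. The signal of each peak is the value deposited by the authors, and the score is the deposited scaled IDR, a measure of reproducible rank; the ranked lists give the deposited −log10 of the IDR. Thresholded peaks have an IDR of at most 0.01. Summits were placed on WBcel235 with the Ensembl release 115 annotation, coordinates counted from 1, using Python 3.11.15, numpy 2.4.6, pandas 2.3.3, scipy 1.17.1 and matplotlib 3.10.9. A peak counted as found in a replicate when they shared 1 bp or more, and replicate signals were read from ranked summits within 100 bp. Motif windows reached 75 bp to either side. Placing and motif search were tested on simulated data, with 200 of 200 divergent summits, 200 of 200 one-direction summits and 100 of 100 planted repeats found.

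The members, gene lists (by name prefix) and motifs were chosen with earlier results of these data known. Named peaks are the 12 strongest, the strongest of each list, pairs with genes of 1 list on both strands, the extreme replicate ratios, those at the limits and those with most genes. The other genes and the printed windows were chosen after their values were seen. Alternatives changed the peak list, the replicates, the promoter window, the 5′ ends, the small RNA filter, the motif window, the flank and the overlap.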

Additional observations from a re-analysis of the deposited data

How the results depend on the processing

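Of 83 summary values recomputed under other settings, 54 stayed within the interval of the value or within 1.5 times the count, and 29 moved. With the stronger 0.5 of the list by signal there were 141 divergent-promoter peaks, 14.3% of autosomal peaks, with a median signal of 134.5; 91.5% lay between the 5′ ends, 78.0% overlapped both replicates, GC content was 47.0%, and 5.21% of divergent regions held one. Leaving out each replicate in turn gave 132 to 158 peaks, 13.3 to 13.5% of autosomal peaks, a median signal of 65.6 to 68.0 on the single replicate's own scale, 89.9 to 90.2% between the 5′ ends, a GC content of 47.0% in both cases and 4.69 to 5.58% of regions. Windows of 500 bp upstream and 100 bp downstream gave 147 peaks (6.92%), 91.2% of them between the 5′ ends; windows of 2000 and 500 bp gave 401 (18.9%), a nearer 5′ end at 185 bp and 9.50% of regions. The counts follow from fewer peaks or from the window by construction. Also set by construction were the higher median signal of the stronger 0.5 and the lower share of the same regions held by fewer peaks. For the other shares and medians and for GC content the cause was not tested. GAGAGA was in 17.9% of windows of 50 bp and 32.1% of 150 bp to either side, and GC content at 150 bp was 39.2%. The conservative list, 1 5′ end per gene, kept tRNA peaks and dropped small RNA peaks moved none of the values. The summary values do not use the flank, so its distance could not move them. With the flank at 800 bp GAGAGA was in 6.88% and CGCG in 18.3% of flanks, against 8.54% and 19.8% at 400 bp. Added after seeing the data were CGCG by list, gene lists by replicate, the heat shock core and dropping the weaker of close summits. Of 56 gene list counts with 1 replicate left out, 20, in 14 of the 28 lists, moved by over 1.5 times, all to lower counts. The count over all genes with a divergent-promoter peak fell as well, from 458 to 312 without replicate 1 and to 259 without replicate 2. Dropping the weaker of close summits gave 223 peaks and moved no summary value. Overlap with both replicates was not run with 1 replicate left out. No paired analysis was possible because there was 1 group.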
